A study of Rattus norvegicus with 9 samples.

Results

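The insulin-like growth factor (IGF) system is described here through 10 genes, namely the ligands Igf1 and Igf2, the receptors Igf1r and Igf2r, and the binding proteins Igfbp2 to Igfbp7. They were chosen by gene symbol, with earlier results of these data known, and make up 10 of the 18733 genes in the deposited tables. All 10 passed a filter on low counts that 14840 genes passed. RNA came from the hippocampus of 9 male rats, taken as 1 rat per library, with 3 libraries in each of 3 groups. The taVNS rats had cognitive impairment after middle cerebral artery occlusion (MCAO), a surgical stroke model, and then received transcutaneous auricular vagus nerve stimulation, an electrical stimulation of the outer ear, for 14 days. The PSCI rats (post-stroke cognitive impairment) had the same operation and impairment, with regular feeding for 2 weeks and no stimulation. The control rats were fed regularly. Impaired rats entered the study on a Y-maze and an object recognition score set against the control mean, and were then divided at random. The labels do not state a strain, an age, sham surgery in the controls, sham stimulation in the PSCI rats or the hemisphere taken.

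IGF1 and IGF2 are small secreted proteins related to insulin. Both act through IGF1R, a receptor tyrosine kinase that signals through adaptor proteins to PI3K, AKT and mTOR and favours growth and survival, whereas IGF2R carries IGF2 to the lysosome and sorts lysosomal enzymes. The binding proteins hold the ligands outside the cell and either restrain them or present them to the receptor. In adult rodent brain IGF1 is made by neurons and by activated microglia, IGF2 mainly by the meninges and the choroid plexus, and IGFBP2 by astrocytes, the meninges and the choroid plexus.

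Igfbp2 and Igfbp5 lie next to each other among the protein-coding genes of rat chromosome 9, on opposite strands. Their transcripts correlated weakly over the 9 libraries (r = 0.145), though both were highest in PSCI replicate 2. The sequence before each start site is shown for these neighbours, and no link between sequence and level was tested. Both windows hold the 250 bases before the annotated start and come from RefSeq on the GRCr8 build, which is newer than the mRatBN7.2 build named for the counts. The Igfbp2 window is chr9:81864561-81864810 on the plus strand and the Igfbp5 window chr9:81914188-81914437 on the minus strand. Capitals mark matches to the motifs searched on both strands.
Igfbp2: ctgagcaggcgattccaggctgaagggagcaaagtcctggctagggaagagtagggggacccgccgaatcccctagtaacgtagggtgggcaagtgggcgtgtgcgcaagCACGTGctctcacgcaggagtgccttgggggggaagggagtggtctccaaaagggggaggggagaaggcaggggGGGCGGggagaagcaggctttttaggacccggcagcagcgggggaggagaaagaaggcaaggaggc
Igfbp5: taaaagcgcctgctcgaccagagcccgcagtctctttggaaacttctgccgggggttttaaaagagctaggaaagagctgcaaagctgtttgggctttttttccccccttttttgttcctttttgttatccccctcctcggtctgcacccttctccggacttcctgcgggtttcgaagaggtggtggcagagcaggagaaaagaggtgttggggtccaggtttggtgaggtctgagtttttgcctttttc
The motifs were the GC box (GGGCGG), the CCAAT box (CCAAT), the TATA box (TATAAA), the AP-1 site (TGANTCA), a STAT site (TTCNNNGAA) and an E-box (CACGTG), and no match overlapped another in these windows. The Igfbp2 window held 1 GC box, which begins 66 bases before the start, and 1 E-box, which begins 140 bases before it. Of 33469 promoter windows of the same length, 30.5% held a GC box and 5.59% this E-box. The Igfbp5 window held none of the motifs. A match describes letters and is not a measured binding site. All 10 genes had such a window, 11 windows in all because Igf2 has 2.

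The libraries held 13747389 to 15415694 estimated counts, and 3 counts, the limit that a count of 0 leaves, equalled 0.195 to 0.218 CPM before scaling between libraries (counting error only). CPM is the count relative to the library total after TMM scaling, and RPKM, also deposited, is scaled for gene length as well, so levels are compared between genes in RPKM only. The 6 markers of hippocampal principal cells summed to 555 to 792 CPM in taVNS, 476 to 839 CPM in PSCI and 675 to 818 CPM in control. The 8 neuronal markers summed to 5467 to 6341 CPM in taVNS, 3879 to 5390 CPM in PSCI and 5702 to 6286 CPM in control, and the 6 oligodendrocyte markers to 8558 to 13390 CPM in taVNS, 4703 to 13200 CPM in PSCI and 9315 to 16340 CPM in control. PSCI replicate 2 had the lowest level of all 3 lists. Libraries taVNS replicate 3 and PSCI replicate 2 stood apart in 12 markers of meninges and fibroblasts, all detected in every library. Their summed level was 50.2, 68.3 and 347 CPM in the taVNS libraries, 89.2, 359.6 and 111 CPM in the PSCI libraries, and 61.0, 69.0 and 89.7 CPM in control. Results that rest on these libraries are given with and without them.

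**Figure D1:**
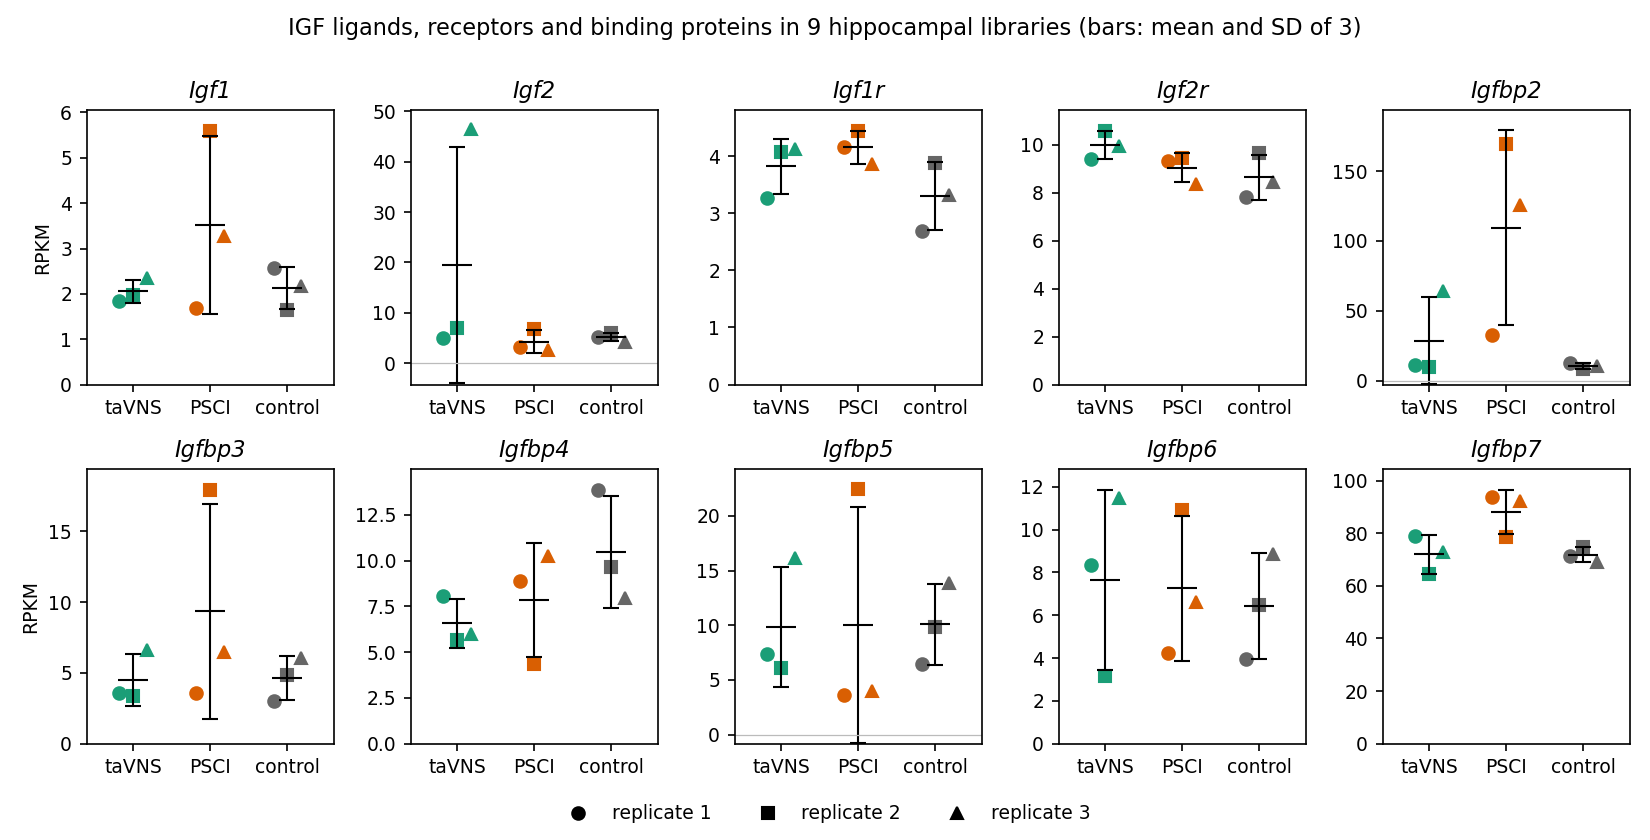
RPKM of the 10 genes in every library, with groups on the horizontal axis, symbols for the replicate number, and bars for the mean and SD of 3 libraries. Igfbp2 lay between 32.9 and 169 RPKM in PSCI and between 8.50 and 12.7 RPKM in control, and Igf2 reached 46.5 RPKM in taVNS replicate 3 alone.

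Igfbp2 was the member that rose in the impaired rats. It measured 33.7, 163 and 128 CPM in the 3 PSCI libraries, against 13.4, 8.78 and 11.2 CPM in control. Every PSCI library lay above every control library, and PSCI replicate 1 lay nearest to control. The means were 108 ± 67.0 CPM in PSCI and 11.1 ± 2.30 CPM in control (SD, n = 3 each), a 9.75-fold rise (log2 fold change 3.29 ± 0.80 SE, 95% interval 1.48 to 5.09, adjusted p = 0.0335 by edgeR's quasi-likelihood test over all genes). In tissue RNA, more cells of a type and more RNA per cell cannot be told apart. The rise was 2.87 (log2) without PSCI replicate 2, 2.85 without that library and taVNS replicate 3, and 3.71 without PSCI replicate 1. The call was lost when any 1 control library, PSCI replicate 2 or PSCI replicate 3 was left out, with adjusted p = 0.0608 to 0.122. It was kept without both meningeal libraries together (adjusted p = 0.00871). The taVNS library is not part of this comparison and enters its fit only through the scaling and the spread shared by all groups. Without taVNS replicate 3 alone the log2 fold change was 3.25 and the SE fell from 0.80 to 0.51 (adjusted p = 0.00944, edgeR). The kept call is therefore no measure of how far the rise depends on the meningeal level. The remaining PSCI libraries were not at the control level of every meningeal marker. Of the 12, 7 were higher in each PSCI library than in each control library and 0 were lower, where 16.2% of all genes were higher. Among these, Fmod was at 18.3, 21.0 and 14.2 CPM in PSCI, against 4.62, 5.24 and 3.01 CPM in control. By edgeR 0 of the 12 were called in PSCI against control, where 9.85% of all genes were called, and DESeq2 called 3. An unadjusted p under 0.05 was reached by 7 of them in edgeR, and by 25.3% of all genes.

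In the stimulated rats Igfbp2 was uneven. It measured 11.6, 10.4 and 65.0 CPM in the taVNS libraries, against 33.7, 163 and 128 CPM in PSCI. The libraries taVNS replicate 1 and 2 lay within the control range of 8.78 to 13.4 CPM, while taVNS replicate 3 lay above PSCI replicate 1, so the groups overlapped. The log2 fold change of taVNS against PSCI was -1.90 ± 0.75 SE (95% interval -3.59 to -0.22, adjusted p = 0.185, edgeR). Without taVNS replicate 3 it was -3.27 (adjusted p = 0.0378), and without both meningeal libraries -2.87 (adjusted p = 0.0306). Against control the taVNS difference was 1.38 ± 0.77 SE (adjusted p = 1), and -0.02 without taVNS replicate 3. One library thus decided both the size of the difference from PSCI and the sign of that from control.

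**Figure D2:**
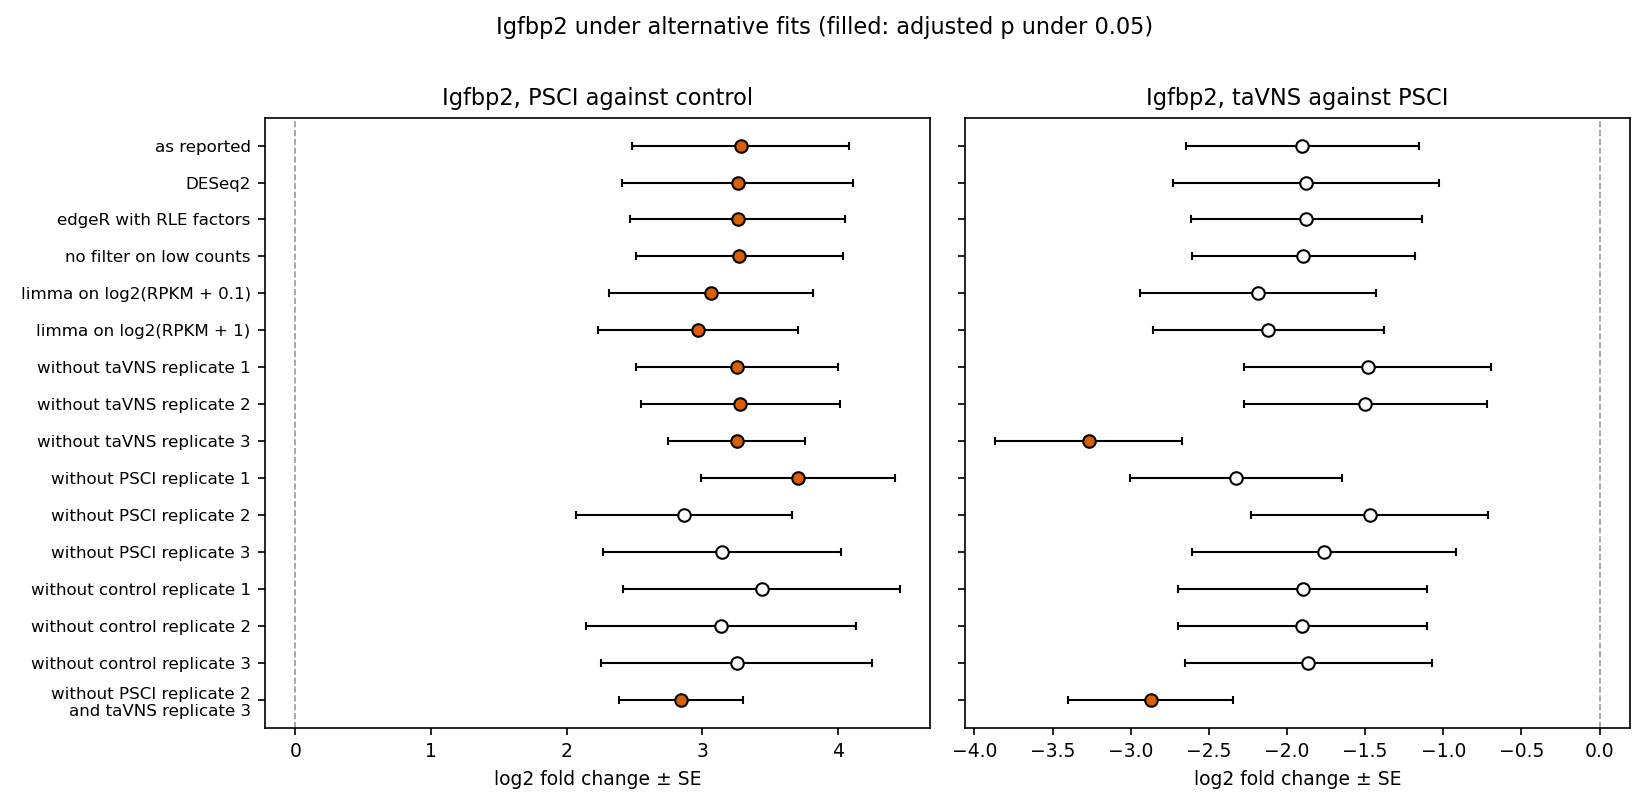
Log2 fold change of Igfbp2 with its SE (horizontal axis) under alternative fits (vertical axis) for PSCI against control (left) and taVNS against PSCI (right), with filled points at adjusted p under 0.05. The rise in PSCI ran from 2.85 to 3.71, and the difference of taVNS from PSCI from -1.47 to -3.27.

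Markers of other cell types also differed between these libraries, not all genes of a list alike. The summed level of 7 astrocyte markers was 2789, 3698 and 3041 CPM in taVNS, 7268, 11610 and 10000 CPM in PSCI, and 3445, 3491 and 2397 CPM in control. Of these 7, Gfap, Aqp4 and Vim were called higher in PSCI against control by edgeR, as were 7.71% of all genes. Gfap (6107 CPM in PSCI, 946 in control) and Vim (860 CPM in PSCI, 25.6 in control) carried the rise of the sum. Slc1a2, Slc1a3, Aldh1l1 and Gja1 were not called, with log2 fold changes of -0.44, 0.20, -0.26 and 0.35. The summed level of 10 microglia and macrophage markers was 291, 306 and 368 CPM in taVNS, 536, 840 and 646 CPM in PSCI, and 273, 238 and 198 CPM in control. Of these 10, 8 were called higher in PSCI against control by edgeR, beside 7.71% of all genes, and P2ry12 and Tmem119 were not. Tmem119 was lower in every PSCI library than in every control library, at means of 13.5 and 20.0 CPM. In taVNS against PSCI 5 were called lower and 1, Tmem119, higher (adjusted p = 0.0252, edgeR). Among all genes 4.91% were called lower and 0.842% higher in taVNS against PSCI. The taVNS library with high Igfbp2, replicate 3, had the high meningeal level of 347 CPM. Its microglia and macrophage, endothelial and pericyte (298 CPM), and smooth muscle sums were also the highest of its group. Its level of Gfap, the filament protein of astrocytes, was 896 CPM, within the range of 631 to 1196 CPM in control. Of the 7 astrocyte markers 1, Vim, was higher in every taVNS library than in every control library, as were 5.74% of all genes. The means of Vim were 55.7 CPM in taVNS and 25.6 CPM in control, and it was not called. Of vascular smooth muscle, 4 markers summed to 24.9, 22.8 and 30.7 CPM in taVNS, 166, 146 and 119.7 CPM in PSCI, and 23.1, 23.9 and 18.4 CPM in control. Tagln carried most of that sum, with 120.1 CPM in PSCI and 8.02 CPM in control, and was called higher. Myh11, at 19.7 CPM in PSCI and 10.8 CPM in control, was also called higher (adjusted p = 0.0243, edgeR). Acta2 was at 3.40 CPM in PSCI and 2.85 CPM in control and was not called. Cnn1, at 0.546 CPM in PSCI and 0.118 CPM in control, was too low to test. The 7 choroid plexus markers summed to 8.40 CPM in taVNS replicate 3 and to 5.88 and 8.62 CPM in the other taVNS libraries. Their sums were 5.11 to 14.8 CPM in PSCI and 1.76 to 12.5 CPM in control, with Kl at 0 in PSCI replicate 1 and Otx2 at 0 in control replicate 3. The part of these cell types in the Igfbp2 level was not tested.

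Of all 10 genes, 1 was called in PSCI against control, Igfbp2, which rose, and 0 fell. Among all 14840 genes 9.85% were called, 7.71% as higher and 2.14% as lower, so 1 of 10 is close to the background. The groups did not overlap for 1 of the 10 genes, against 27.4% of all genes in either direction and 16.2% in the direction of Igfbp2. An unadjusted p under 0.05 was reached by 2 of them, Igfbp2 and Igfbp7, and by 25.3% of all genes. The median log2 fold change of the 10 was 0.18, beside 0 for all genes. In taVNS against PSCI 0 of 10 were called by edgeR, and 0 by DESeq2, where 5.75% of all genes were called, 0.842% as higher and 4.91% as lower. An unadjusted p under 0.05 was reached by 3 of them (Igf2, Igfbp2 and Igfbp7) and by 21.1% of all genes. The groups did not overlap for 0 members and for 25.9% of all genes. Their median was -0.17, beside -0.002 for all genes. In taVNS against control 0 of 10 and 0% of all genes were called by edgeR, with 1 member, Igf2, and 557 genes (3.75%) at an unadjusted p under 0.05. DESeq2 called 9 genes in that comparison and 0 members. The comparisons share libraries and are not independent of each other.

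**Figure D3:**
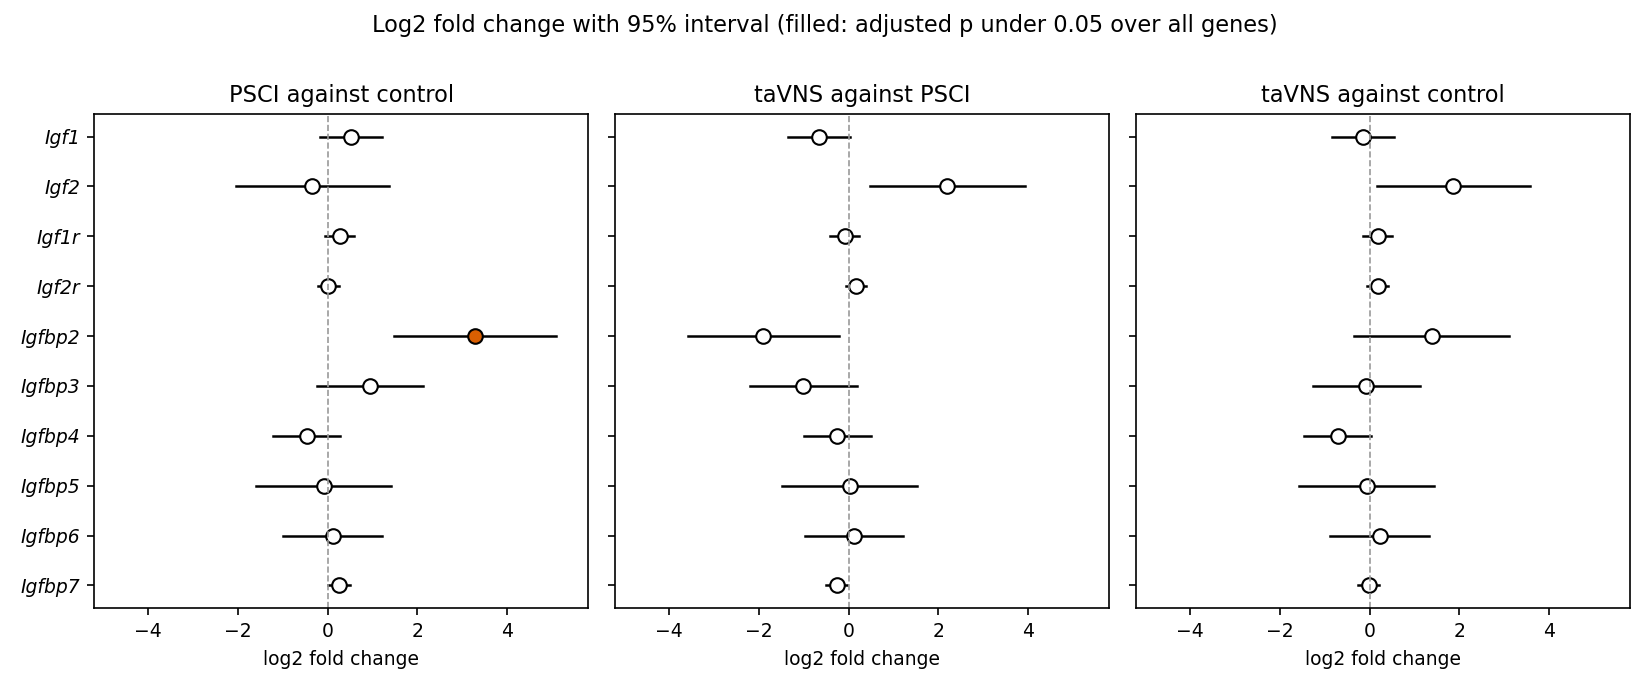
Log2 fold change with its 95% interval (horizontal axis) for the 10 genes (vertical axis) in the 3 comparisons, with a filled point at adjusted p under 0.05 over all genes. Igfbp2 in PSCI against control, at 3.29, is the filled point, and the widest intervals belong to Igf2, Igfbp2 and Igfbp5.

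Of the ligands, Igf2 varied most between libraries of 1 group. It measured 15.98, 23.8 and 149 CPM in taVNS, 10.7, 21.5 and 8.75 CPM in PSCI, and 17.7, 19.8 and 14.3 CPM in control. The library taVNS replicate 3 had 2183.5 of its estimated counts, and the other 8 libraries between 134 and 340. Its mean was 63.0 ± 74.8 CPM in taVNS and 13.7 ± 6.89 CPM in PSCI, with a log2 fold change of 2.20 ± 0.77 SE (adjusted p = 0.14, edgeR). Without taVNS replicate 3 this was 0.57, and without both meningeal libraries 1.04 (adjusted p = 0.0658). Against control the taVNS difference was 1.86 ± 0.76 SE (adjusted p = 1), and 0.20 without taVNS replicate 3. In PSCI against control it was -0.34 ± 0.76 SE (adjusted p = 0.833), and -0.85 without both meningeal libraries (adjusted p = 0.0557). The taVNS library enters that fit only through the scaling and the shared spread. Without it alone the log2 fold change was -0.37 and the SE 0.32.

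The libraries with the highest meningeal levels differed in Igf2. PSCI replicate 2 had a summed meningeal level of 359.6 CPM with Igf2 at 21.5 CPM, and taVNS replicate 3 had 347 CPM with Igf2 at 149 CPM. Each had the highest Igf2 level of its own group, whereas control replicate 3, with the highest meningeal sum of the controls, had the lowest Igf2 level of that group. Of the 12 markers, 6 were higher in taVNS replicate 3 than in PSCI replicate 2 and 6 were lower. Dcn, the fibroblast proteoglycan decorin, was at 41.0 CPM in taVNS replicate 3, 69.4 CPM in PSCI replicate 2 and 54.7 CPM in control replicate 3. Col1a1, a chain of fibrillar collagen, was at 39.4 CPM in taVNS replicate 3, 53.7 CPM in PSCI replicate 2 and 4.33 CPM in control replicate 3. Ogn, the small proteoglycan osteoglycin and one of those higher in the taVNS library, was at 41.9 CPM in taVNS replicate 3 and 18.5 CPM in PSCI replicate 2. Ttr, the abundant choroid plexus transcript, was at 2.39 CPM in taVNS replicate 3 and reached 8.57 CPM in control replicate 2, where Igf2 was at 19.8 CPM.

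**Figure D4:**
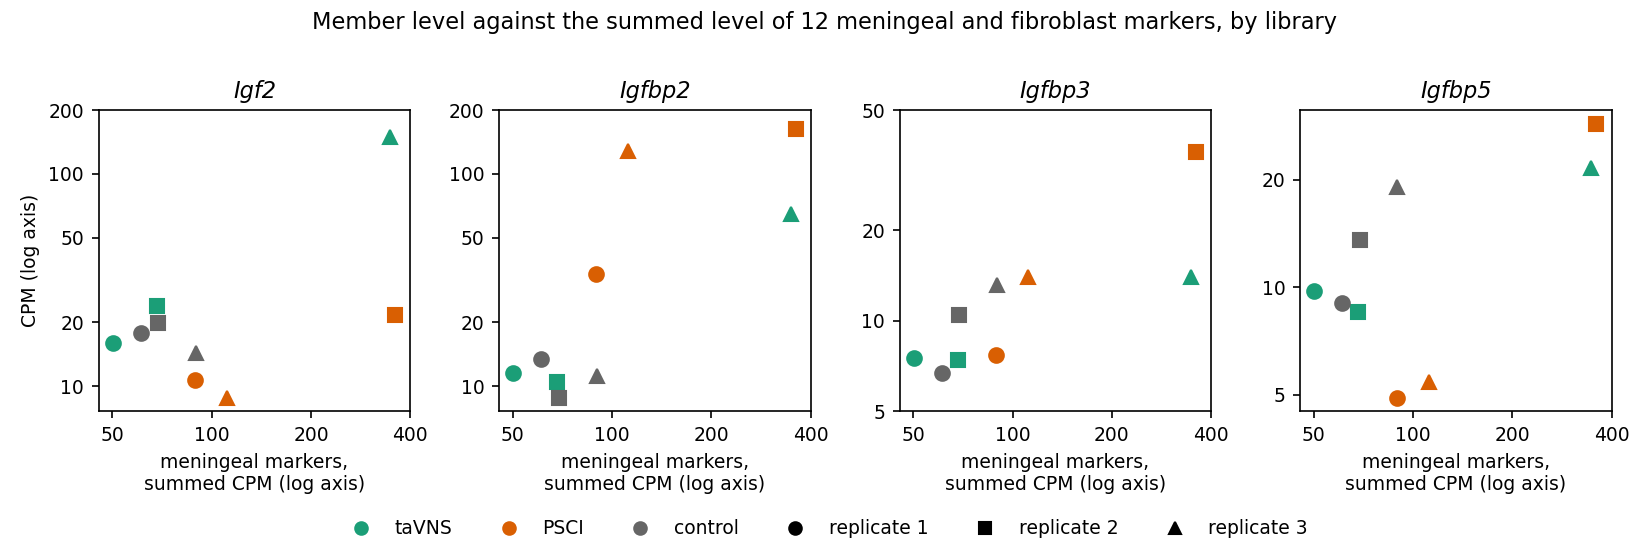
CPM of 4 genes (vertical, log axis) against the summed CPM of 12 meningeal and fibroblast markers (horizontal, log axis), 1 point per library, coloured by group. At the 2 highest meningeal levels Igf2 was 149 CPM in taVNS replicate 3 and 21.5 CPM in PSCI replicate 2, while Igfbp3 was 13.9 and 36.3 CPM.

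Igf1 was at 10.02, 11.8 and 12.2 CPM in taVNS, 9.61, 25.4 and 18.5 CPM in PSCI, and 13.5, 9.99 and 14.0 CPM in control. The libraries PSCI replicate 2 and 3 lay above all others and PSCI replicate 1 was the lowest of the 9. The log2 fold change of PSCI against control was 0.52 ± 0.30 SE (adjusted p = 0.337, edgeR) and that of taVNS against PSCI -0.65 ± 0.30 SE (adjusted p = 0.258). Without PSCI replicate 1 both passed the threshold, at 0.81 (adjusted p = 0.0269) and -0.95 (adjusted p = 0.0172). Without PSCI replicate 2 they were 0.17 and -0.31. The microglia and macrophage markers were also highest in PSCI replicate 2 and 3, at 840 and 646 CPM. In PSCI replicate 1, which had the lowest Igf1 level, they summed to 536 CPM, above all taVNS and control libraries. Their part in the Igf1 level was not tested.

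The receptors differed little between groups. Igf1r measured 38.6, 50.7 and 48.0 CPM in taVNS, 48.8, 50.7 and 46.6 CPM in PSCI, and 33.5, 47.5 and 40.4 CPM in control, and the groups overlapped. Its log2 fold change in PSCI against control was 0.27 ± 0.15 SE (95% interval -0.06 to 0.59, adjusted p = 0.291, edgeR). Igf2r measured 78.8, 93.2 and 82.5 CPM in taVNS, 80.0, 76.3 and 71.4 CPM in PSCI, and 68.7, 83.5 and 72.9 CPM in control. Its interval for PSCI against control ran from -0.21 to 0.25 (log2) and that for taVNS against PSCI from -0.07 to 0.39. Among members, Igf2r and Igfbp7 had the narrowest intervals in both comparisons.

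Igfbp7, which binds IGFs weakly and is abundant in blood vessels, was the most abundant member in control. It measured 64.0, 55.5 and 59.9 CPM in taVNS, 78.3, 61.5 and 76.6 CPM in PSCI, and 60.9, 62.9 and 58.4 CPM in control. PSCI replicates 1 and 3 lay above all others, and PSCI replicate 2 lay within the control range. The log2 fold change of PSCI against control was 0.25 ± 0.11 SE (adjusted p = 0.185) and that of taVNS against PSCI -0.27 ± 0.11 SE (adjusted p = 0.188). Without PSCI replicate 2 the first was 0.36 (adjusted p = 0.0493). In RPKM the PSCI libraries, at 93.8, 78.6 and 92.2, all lay above the control libraries, at 71.2, 74.9 and 69.2. The 10 endothelial and pericyte markers summed to 228 to 298 CPM in taVNS, 259.7 to 278 CPM in PSCI and 145 to 269.7 CPM in control.

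Igfbp5, which also binds extracellular matrix, depended on PSCI replicate 2. It measured 9.74, 8.53 and 21.5 CPM in taVNS, 4.91, 28.7 and 5.42 CPM in PSCI, and 9.04, 13.5 and 19.03 CPM in control. PSCI thus held the lowest pair of libraries and the highest single one. With all libraries the log2 fold change of PSCI against control was -0.09 ± 0.67 SE (adjusted p = 0.954). It was -1.42 without PSCI replicate 2 (adjusted p = 0.0899) and -1.44 without both meningeal libraries (adjusted p = 0.0243, edgeR). The taVNS library enters the second of these fits only through the scaling and the spread shared by all groups. Igfbp2, the chromosomal neighbour of Igfbp5, was higher in PSCI under the same fits.

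Igfbp3, the main carrier of IGFs in blood, measured 7.50, 7.41 and 13.9 CPM in taVNS, 7.70, 36.3 and 14.0 CPM in PSCI, and 6.69, 10.5 and 13.2 CPM in control. PSCI replicate 2 stood above all others and the remaining PSCI libraries lay near the control range. The log2 fold change of PSCI against control was 0.94 ± 0.53 SE (adjusted p = 0.309) and 0.11 without PSCI replicate 2. That of taVNS against PSCI was -1.01 ± 0.53 SE (adjusted p = 0.312) and -0.17 without PSCI replicate 2.

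Igfbp4, an inhibitor of IGF action that the protease PAPP-A cleaves, measured 15.0, 11.1 and 11.1 CPM in taVNS, 16.9, 7.78 and 19.5 CPM in PSCI, and 27.1, 18.5 and 15.2 CPM in control. Every taVNS library lay below every control library, with a log2 fold change of -0.71 ± 0.33 SE (95% interval -1.46 to 0.04, adjusted p = 1, edgeR). In that comparison the groups did not overlap for 1 of 10 members and for 11.1% of all genes, 5.74% as higher and 5.4% as lower. In RPKM taVNS replicate 1, at 8.09, lay above control replicate 3, at 7.95, so the groups overlapped. Igfbp6, which prefers IGF2 to IGF1, measured 4.84, 1.96 and 6.83 CPM in taVNS, 2.52, 6.12 and 3.92 CPM in PSCI, and 2.42, 3.90 and 5.36 CPM in control. Its intervals ran from -0.996 to 1.21 (log2) in PSCI against control and from -0.98 to 1.21 in taVNS against PSCI.

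Per length, the order of the family by group means differed between groups. In taVNS Igfbp7 led with 71.97 ± 7.28 RPKM, followed by Igfbp2 with 28.6 ± 31.0 and Igf2 with 19.5 ± 23.4 RPKM (SD, n = 3). The place of Igf2 rests on taVNS replicate 3. In taVNS replicates 1 and 2 Igf2 was at 5.02 and 7.05 RPKM, below Igf2r at 9.41 and 10.6 RPKM. Igfbp2 was at 11.6 and 9.84 RPKM in these libraries, so its place overlapped with Igf2r. In PSCI Igfbp2, at 109 ± 69.7 RPKM, and Igfbp7, at 88.2 ± 8.37 RPKM, did not differ beyond their spread and both lay above all other members in every library. In control Igfbp7, at 71.8 ± 2.86 RPKM, lay above Igfbp2, at 10.7 ± 2.12 RPKM, in every library. Igf1 was the lowest in all 3 groups, at 2.05 ± 0.258 RPKM in taVNS, 3.52 ± 1.97 RPKM in PSCI and 2.13 ± 0.462 RPKM in control, and it lay below Igf1r in every library of taVNS and control. The genes between Igfbp2 and Igf1r in control, from Igfbp4 at 10.5 to Igfbp3 at 4.64 RPKM, overlapped with their neighbours in the order.

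The 6 binding protein transcripts together came to 118, 92.4 and 177 RPKM in taVNS, 147, 304 and 245 RPKM in PSCI, and 111, 114 and 117 RPKM in control. The PSCI libraries lay above control and above the taVNS libraries other than replicate 3. Igfbp2 made up 9.83%, 10.6% and 36.3% of this sum in taVNS, 22.4%, 55.8% and 51.3% in PSCI, and 11.4%, 7.44% and 9.23% in control. Igfbp7 made up 66.9%, 69.6% and 41.0% in taVNS, 63.8%, 25.9% and 37.6% in PSCI, and 64.0%, 65.6% and 59.3% in control. No test was made on these sums.

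**Figure D5:**
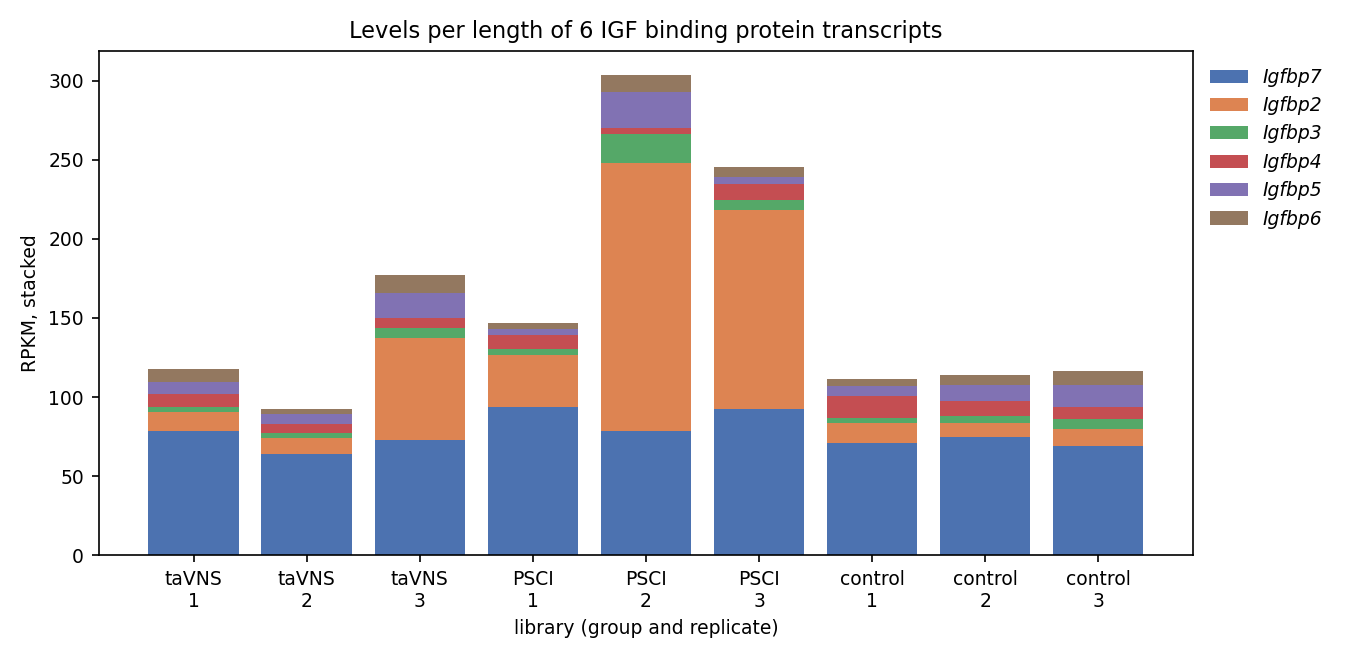
RPKM of the 6 binding protein transcripts, stacked, in each library (horizontal axis: group and replicate). The whole bar is 147, 304 and 245 RPKM in PSCI and 111 to 117 RPKM in control, and the Igfbp2 segment takes 22.4% to 55.8% of it in PSCI.

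The genes whose pattern over the 9 libraries was most like that of each member were found by Pearson correlation of log2 CPM among 13463 genes. The 9 points share their groups, and the high values are the top of a large number of candidates. For Igfbp2 these were Anxa2, an annexin (r = 0.99), Col18a1, a basement membrane collagen (r = 0.99), and Bicc1 (r = 0.99). Anxa2 was at 5.89, 6.51 and 24.7 CPM in taVNS, 18.5, 90.2 and 49.6 CPM in PSCI, and 5.31, 5.45 and 5.88 CPM in control. For Igf2 they were Vtn, the adhesion protein vitronectin (r = 0.905), Gjb2, the gap junction protein connexin 26 of the leptomeninges (r = 0.903), and RT1-CE10, a class I histocompatibility gene (r = 0.89). Vtn was at 12.2, 13.3 and 24.5 CPM in taVNS, 9.88, 9.30 and 8.88 CPM in PSCI, and 8.63, 11.8 and 10.3 CPM in control. Like Igf2, Vtn, Gjb2 (13.9 CPM) and RT1-CE10 (7.38 CPM) were each highest in taVNS replicate 3. The correlations with Igf2 therefore rest in large part on that library. For Igf1 they were St13, Glce and Mrps6 (r = 0.96 to 0.99), for Igfbp3 Ptprf, Ece1 and Ska3 (r = 0.96 to 0.97), and for Igfbp5 Rxra, Pde1a and Pde11a (r = 0.98 to 0.99). For Igfbp7 they were Hist2h2aa3, Igf2bp3 and Sod3 (r = 0.92 to 0.94), for Igfbp4 Alg13, Ccni and Slc7a6os (r = 0.95), and for Igfbp6 Pkdcc, Slc7a8 and Col5a1 (r = 0.95 to 0.97). For Igf1r they were Dolpp1, Irf9 and Serpinb6b (r = 0.95 to 0.98), and for Igf2r Hectd4, Apc2 and Nol6 (r = 0.96 to 0.98).

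Among members, the highest correlations over the 9 libraries were 0.83 between Igf1 and Igfbp3, 0.74 between Igfbp2 and Igfbp3, 0.73 between Igfbp5 and Igfbp6, and 0.73 between Igf1 and Igfbp2. That of the neighbours Igfbp2 and Igfbp5 was 0.14, and that of Igf1 and Igf2 was -0.08. PSCI replicate 2 was the highest library for Igf1, Igfbp2, Igfbp3 and Igfbp5, so these values rest in part on that library.

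The genes around the family were read from 5 lists. Of 9 receptors and adaptors 8 were tested, and 1, Shc1, rose in PSCI and none fell (0), with a median log2 fold change of -0.07. Shc1, an adaptor that links growth factor receptors to Ras, measured 18.6, 19.5 and 22.9 CPM in taVNS, 25.9, 53.2 and 41.3 CPM in PSCI, and 14.6, 16.8 and 14.0 CPM in control. PSCI lay above both other groups without overlap. It rose 2.66-fold in PSCI against control (adjusted p = 0.00743, edgeR) and fell 1.97-fold in taVNS against PSCI (adjusted p = 0.041). The fall was no longer called when a single library was left out, except PSCI replicate 1, nor without both meningeal libraries, nor by limma on RPKM (adjusted p = 0.0588 to 0.151). Insr, the insulin receptor, was at 58.5 ± 8.67 CPM in PSCI and 61.0 ± 7.89 CPM in control, and Irs2, a docking protein of both receptors, at 78.4 ± 13.9 CPM in PSCI and 100.1 ± 5.15 CPM in control (adjusted p = 0.162).

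Of 15 genes of the PI3K and AKT steps, all tested, 2 rose in PSCI against control, Mtor and Pik3cd, and 0 fell, with a median of -0.06. These counts, 1 of 8 and 2 of 15, are near the 9.85% called among all genes. In taVNS against PSCI 1 fell, Mtor (3.64-fold, adjusted p = 6.19e-04), and 0 rose. Among all genes 5.75% were called in that comparison, 4.91% as lower. The 1 of 15 here and the 1 of 8 for Shc1 rest on 1 gene each. In PSCI against control Mtor, the kinase of growth control, rose 3.87-fold by counts (adjusted p = 3.52e-04). It measured 112, 132 and 129.6 CPM in taVNS, 389.5, 401 and 571 CPM in PSCI, and 103, 127 and 121 CPM in control. Its deposited RPKM gave a smaller difference, with 13.8, 15.5 and 16.1 in taVNS, 44.1, 38.6 and 33.7 in PSCI, and 12.1, 15.1 and 14.5 in control. The log2 ratio of PSCI to control means was 1.95 by CPM and 1.48 by RPKM, and PSCI replicate 3 was the highest PSCI library by CPM and the lowest by RPKM, so the size of its change differs between the deposited units. None of the 30 member ratios (10 genes, 3 comparisons) differed by over 0.25 between CPM and RPKM (0), and the largest gap was 0.21, for Igf1 in PSCI against control. Pik3cd, a PI3K subunit of leukocytes, rose 1.99-fold (adjusted p = 0.0232) to 34.7 ± 11.4 CPM in PSCI, against 17.4 ± 2.42 CPM in control. Its call was lost without any 1 control library (adjusted p = 0.0503 to 0.0837).

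None (0) of the other 3 lists' genes was called by edgeR in any comparison. Of 8 IGFBP proteases, their inhibitors and other carriers 7 were found and 4 tested, and Igfals, Igfbp1 and Stc2 were too low to test. Htra1, a secreted protease that cleaves binding proteins, was at 102 ± 10.9 CPM in taVNS, 137 ± 32.5 CPM in PSCI and 132 ± 27.8 CPM in control. Of 3 RNA-binding proteins of Igf2 messages 2 were tested, and 1, Igf2bp2, had an unadjusted p of 0.049 in taVNS against PSCI (adjusted p = 0.235), with 0.369 ± 0.154 CPM in taVNS and 1.27 ± 0.994 CPM in PSCI. Of 6 imprinted genes often expressed with Igf2 5 were tested, with medians of -0.25 in PSCI against control and 0.16 in taVNS against PSCI, and 0 had an unadjusted p under 0.05.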

How the data were processed

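Poly(A)-selected RNA of 9 hippocampi was sequenced. The deposited files hold, per library, estimated counts per gene that the authors did not scale, and RPKM values that the authors scaled for length and depth and wrote with 2 decimals. HISAT2 2.0.4, RSEM 1.2.8 and the build mRatBN7.2 are named in the submitters' processing notes; the role of each tool, the annotation and filters are not given in the sources used here.

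Counts were rounded, filtered with filterByExpr, scaled by TMM and tested with edgeR 4.0.16 (quasi-likelihood F test, all 9 libraries fitted on group, 6 residual degrees of freedom, R 4.3.3), with Benjamini-Hochberg adjustment over 14840 genes and calls at 0.05. The step was tested on counts simulated with known folds in PSCI. No simulated library was set apart from its group, so that test cannot bear on results that rest on single libraries. Log2 CPM used a prior count of 2. DESeq2 1.42.0 and limma 3.58.1 on log2(RPKM + 0.1) and log2(RPKM + 1) were alternatives, with other scaling, no filter, a replicate block and left-out libraries. Sequences are RefSeq, GRCr8; 18480 of 18733 gene identifiers, and all 10 members, matched. No columns of other series were present.

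All 10 members and every called gene of the pathway lists are named, with marker genes for 9 cell types and the 3 genes most like each member by r with a mean of at least 1 CPM. Other marker and pathway genes named by value were chosen after their values were seen. Members and lists were chosen with earlier results of these data known. The labels describe tissue taken per animal but do not tie libraries to animals by name, so p-values measure the spread between these samples.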

Additional observations from a re-analysis of the deposited data

How the results depend on the processing

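Genes called in PSCI against control numbered 1461, and 2257 with DESeq2 (1546 higher, 711 lower), and 548 to 2255 when 1 library was left out. For taVNS against PSCI they numbered 854, against 1550 with DESeq2, 518 with the replicate block, and 172 to 1707 with 1 library left out (361 without PSCI replicate 2 and taVNS replicate 3 together). For taVNS against control they numbered 0, with 9 by DESeq2, 0 to 1 with 1 library left out, and 1 without both meningeal libraries. Members called in PSCI against control were 1, and 0 to 2 with libraries left out: 1 without PSCI replicate 2 (Igfbp7, not Igfbp2), 0 without PSCI replicate 3 or any 1 control library, 2 without PSCI replicate 1 (Igf1, Igfbp2), and 2 without both meningeal libraries (Igfbp2, Igfbp5). In taVNS against PSCI they were 0, and 0 to 1 with libraries left out (Igf1 without PSCI replicate 1, Igfbp2 without taVNS replicate 3 or without both meningeal libraries).

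The replicate numbers did not pair the samples: correlations of same-numbered deviations ran from -0.468 to 0.255. With the replicate block 1084 genes and 0 members were called in PSCI against control, where Igfbp2 had a log2 fold change of 3.05 (adjusted p = 0.0567), and Shc1 lost its call in taVNS against PSCI (adjusted p = 0.0561). It changed no other call among the members, Shc1, Pik3cd and Mtor. Not every library correlated best with its own number: taVNS replicate 3 did so with PSCI replicate 2 (0.458).

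Signs changed for members that were not called, and for no called result. With 1 library left out, PSCI against control ran from -0.045 to 0.098 for Igf2r, -1.415 to 0.297 for Igfbp5 and -0.264 to 0.382 for Igfbp6 (-0.283 without both meningeal libraries). For taVNS against PSCI the ranges were -0.168 to 0.042 for Igf1r, -0.555 to 0.006 for Igfbp4, -0.470 to 1.363 for Igfbp5 and -0.274 to 0.499 for Igfbp6, which was -0.001 with limma on log2(RPKM + 0.1). For taVNS against control they were -0.016 to 1.782 for Igfbp2 (-0.025 without both), -0.435 to 0.170 for Igfbp3, -0.597 to 0.240 for Igfbp5, -0.190 to 0.584 for Igfbp6 (-0.199 without both) and -0.068 to 0.027 for Igfbp7. The cause was not tested. The lowest count of a member was 28, for Igfbp6 in taVNS replicate 2.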

Other observations

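Ratios between members within a library were computed with the values in view and carry no test. For single genes, PSCI and control did not overlap in 27.4% of all genes tested. The ratio of Igf2 to Igf1 RPKM was 2.73, 3.56 and 19.9 in taVNS, 1.91, 1.23 and 0.808 in PSCI, and 2.05, 3.64 and 1.96 in control. The 3 PSCI libraries held the lowest values, with PSCI replicate 1 (1.91) close to control replicate 3 (1.96). The ratio of Igf2r to Igf1r RPKM was 2.88, 2.596 and 2.41 in taVNS, 2.25, 2.12 and 2.16 in PSCI, and 2.90, 2.48 and 2.54 in control, and again the PSCI libraries were the lowest. The summed RPKM of the 6 binding proteins over that of both ligands was 17.2, 10.2 and 3.63 in taVNS, 29.9, 24.3 and 41.4 in PSCI, and 14.2, 14.9 and 18.1 in control. It was highest in the PSCI libraries, and lowest in taVNS replicate 3, the library with 2183.5 estimated counts of Igf2.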
